A study of Mus musculus with 12 samples.

Results

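CD8 T cells of mouse lymph nodes were selected from 6 libraries of the CD45-bound fraction by what they transcribed. A cell with at least 1000 UMIs (molecular tags that each mark 1 captured RNA molecule), at least 500 genes and at most 10% mitochondrial UMIs was taken when it held at least 2 UMIs over Cd3d, Cd3e and Cd3g and at least 1 over Cd8a and Cd8b1. It also had to hold 0 UMIs of Cd4, Foxp3, Cd79a, Ms4a1 and Trdc, which mark helper and regulatory T cells, B cells and gamma-delta T cells. This gave 6272 CD8 T cells of 45341 cells kept in these libraries, and of 95358 kept in all 12 libraries of the series. The same rule found 2724 cells in the 6 libraries of the CD31 fraction, the cells that CD45 beads did not hold. Since the rule read these transcripts, their levels are a description and not a finding.

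All mice were C57BL/6, aged 7 to 10 weeks, homozygous for a floxed ATG12 allele (ATG12 fl/fl), and all received 5 doses of tamoxifen. They were labelled positive or negative for CDH5 CreER, a recombinase driven by an endothelial promoter, so CD8 T cells are not the cells in which it is meant to act. Oxazolone at 4% was painted on the abdomen and nodes were taken on day 3 or day 7, and vehicle mice received acetone and olive oil alone. Each fraction, treatment and Cre label is 1 library, 10x Genomics 3-prime chemistry. Treatments could therefore be compared over 2 libraries each, 1 per Cre label, and Cre labels over 3 libraries each, 1 per treatment. The labels do not say how many animals a library holds, so p-values measure only the spread between libraries. Values are listed for vehicle, day 3 and day 7, and within each pair Cre-negative comes first.

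CD8 T cells recognise peptides on MHC class I and kill infected or altered cells. Naive cells enter nodes through high endothelial venules, using adhesion receptors and Ccr7, and leave again unless they meet antigen. Primed cells enlarge, raise the high-affinity IL-2 receptor, turn to glycolysis and lipid synthesis, divide repeatedly and load granules with granzymes. Memory-like cells stay ready without dividing, and in mice many keep Ccl5, Ly6c2 and Il2rb transcripts. In contact hypersensitivity, the reaction that oxazolone elicits in skin, CD8 T cells are known as effector cells.

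The libraries held 1130 and 954 CD8 T cells (vehicle), 1089 and 681 (day 3) and 1389 and 1029 (day 7). They made up 13.37% and 15.19%, 13.18% and 11.38%, and 18.18% and 11.8% of kept cells, and 40.07% to 46.74% of T cells. The day 7 pair held both the highest share of kept cells and the next to lowest, so treatments overlapped. Cd8b1 was seen in 95.87% to 97.9% of the cells and Cd8a in 75.09% to 86.79%. Between 27 and 115 cells per library passed with exactly 1 CD8 UMI, and 280 to 807 met every other condition with 0. For CD3, 3 to 13 cells had exactly 2 UMIs and 5 to 11 missed the rule with 1. Transcripts of other cells were present, given in CPM (counts per 10 to the 6th UMIs summed over the CD8 T cells of a library, the level used below). Endothelial and stromal markers summed to 578 to 1910.1 CPM, B cell markers to 337.9 to 823.6 and myeloid markers to 250.5 to 437.7. Of the endothelial markers, Lyve1 was at 0 in all 6 libraries and Cdh5 in 2, and red cell genes summed to at most 0.136 CPM.

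Summed UMIs of the CD8 T cells ran from 7330631 to 9618774 per library, and the median cell held 5834 and 7709, 5902 and 8454, and 5059 and 6654 UMIs. The Cre-positive library was deeper in each pair, and its median mitochondrial share was also higher (2.11% to 2.32% against 1.4% to 1.68%). A Y-linked UMI was found in 42.92% and 78.2%, 16.99% and 41.85%, and 32.61% and 19.53% of the cells, and an Xist UMI in 32.39% and 0.105%, 61.07% and 41.7%, and 34.34% and 37.71%. Cells of both sexes were thus in 5 libraries, whereas the vehicle Cre-positive library held almost no Xist. Within each Cre label, the Y-linked share was lower and the Xist share higher at day 3 than after vehicle. Sex mix thus differed between the libraries compared, and its part in the differences below was not tested. CD45 libraries shared 3 barcodes over all CD8 T cells. RNA free in the suspension was estimated at 1.433% to 3.987% of their UMIs, scaled on Igkc, Ighm and Hbb-bs alone. Whether that share holds for stromal or myeloid transcripts was not tested. Subtraction of free RNA below may therefore leave part of them in place.

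At day 3, CD8 T cells held more cell cycle, granzyme B, IL-2 receptor alpha, sterol and glycolysis transcripts than after vehicle, and lower levels of 5 of 20 naive cell genes. Of 12707 genes tested, 848 (6.67%) were higher and 172 (1.35%) lower at day 3 by edgeR's quasi-likelihood test, at a Benjamini-Hochberg adjusted p under 0.05. Genes passing that threshold are named as called below. In all, 8.03% of genes were called, and the median log2 change over all genes was -0.004. The count was 178 without the day 3 Cre-negative library, 307 and 447 without the Cre-positive and Cre-negative vehicle libraries, and 2019 and 1842 without the day 7 Cre-negative and Cre-positive libraries. Such fits rest on a single library for the treatment of the library left out, with fewer residual degrees of freedom than the main fit. Whether calls lost or gained in them reflect the gene or the smaller fit was not tested, here and below. With cells thinned to 1000 UMIs each, 25 genes were called, and 22 were called without cells that carry 3 or more UMIs of other lineages' markers. That last cut was not scaled for depth, so deeper cells meet it more easily.

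**Figure D1:**
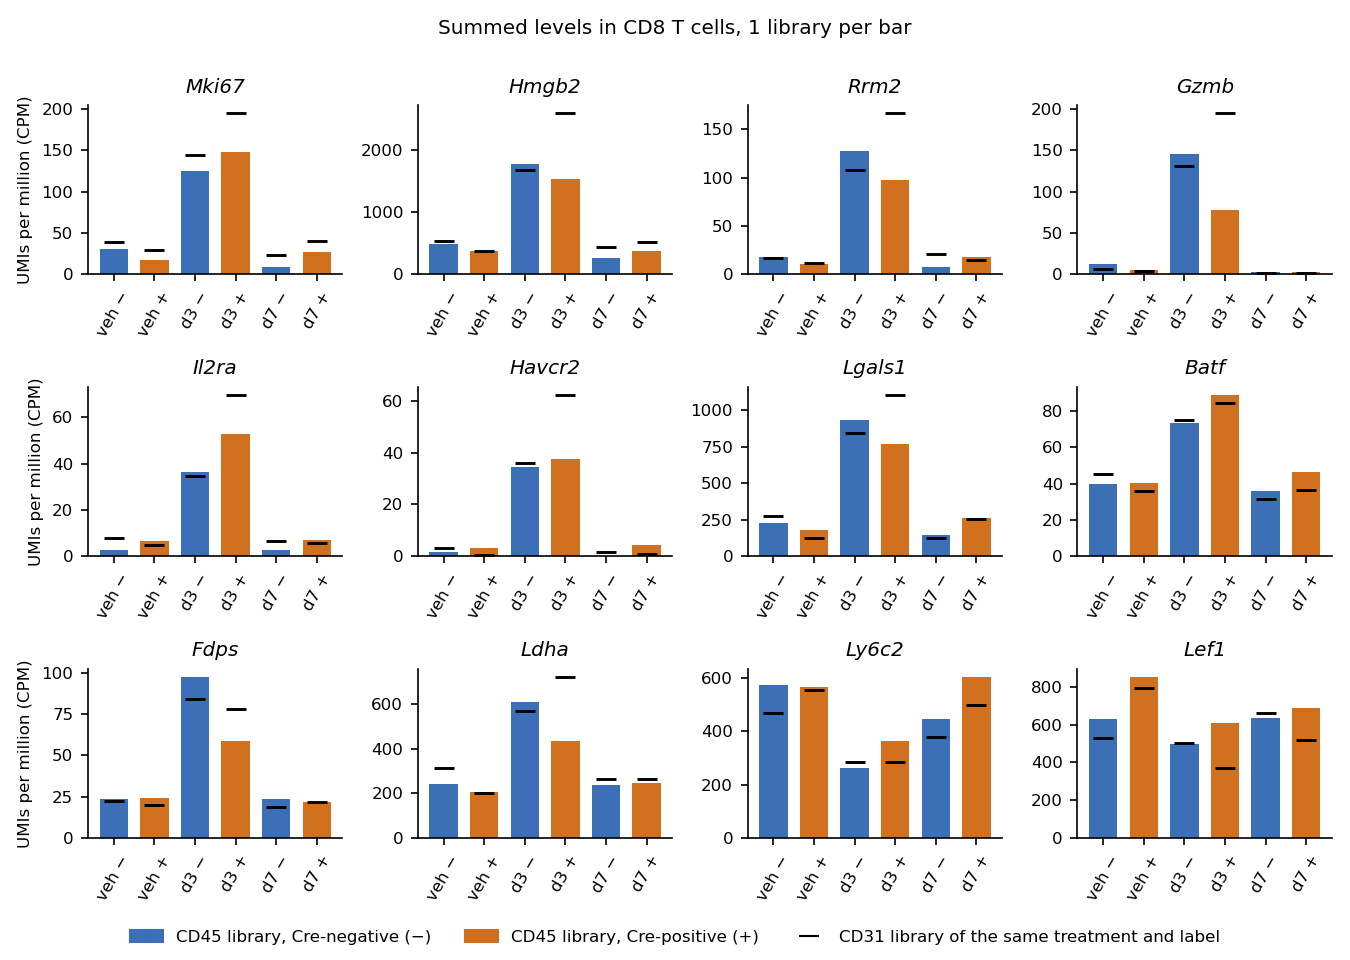
Levels of 12 genes summed over CD8 T cells, in CPM, with 1 bar per CD45 library (blue Cre-negative, orange Cre-positive; veh is vehicle, d3 day 3, d7 day 7) and a black dash for the CD31 library of the same treatment and label. All panels but Ly6c2 and Lef1 peak in both day 3 libraries, such as Mki67 at 124.7 and 148.1 CPM and Ldha at 610.3 and 433.4, and those 2 are lowest there.

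Cell cycle genes moved most as a group. Of 26 tested, 25 were called higher at day 3, where 6.67% of all genes were, and none lower. Their median log2 change was 1.93. Mki67, which encodes a nuclear protein of dividing cells (chr7:135689784-135716361, GRCm38), was at 30.97 and 17.35 CPM after vehicle, 124.7 and 148.1 at day 3, and 9.192 and 26.5 at day 7. Both day 3 libraries lay above all 4 others, and the log2 change was 2.42 (SE 0.38, adjusted p = 0.0109). Hmgb2, a chromatin protein abundant in cycling cells, was at 486 and 369.2 CPM, 1776.4 and 1524.5, and 261.7 and 376.9. It rose by 1.89 on the log2 scale (SE 0.18, adjusted p = 0.00354), with no overlap between day 3 and the other libraries.

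The S phase genes followed the same order. Rrm2, a subunit of the enzyme that makes deoxynucleotides, was at 17.73 and 10.51 CPM, 127.9 and 98.11, and 7.879 and 17.5 (log2 change 2.95, SE 0.33, adjusted p = 0.00468). Hist1h1b, a linker histone made during DNA replication, was at 48.43 and 36.72 CPM, 303.6 and 308.3, and 27.97 and 27.92 (2.80, SE 0.13, adjusted p = 0.00036). Pclaf, a partner of the replication clamp, rose by 2.78 and the clamp Pcna itself by 1.06. Day 3 was again above every other library for all 4 genes. Cells with no UMI of Ccl5, Nkg7, Gzmb, Ifng, Klrg1, Mki67 and Top2a are referred to as cells without the genes of the gates. In these, Hmgb2 and Pcna turned to -0.10 and -0.23, without a call. The choice by Mki67 and Top2a itself leaves out dividing cells, so it does not test these changes.

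Of the mitotic genes, Cdk1, the kinase that drives entry into mitosis, was at 12.28 and 10.51 CPM, 80.05 and 60.97, and 4.596 and 9.134 (log2 change 2.57, SE 0.25, adjusted p = 0.00354). Its partner cyclin Ccna2 rose by 2.93 (SE 0.22, adjusted p = 0.00137) and the mitotic cyclin Ccnb2 by 2.39 (adjusted p = 0.013). Top2a, which untangles chromosomes, rose by 1.97 (adjusted p = 0.00976). Cenpf, a kinetochore protein, was the 1 gene of the list not called (adjusted p = 0.0699). The Birc5 and Ccnb2 calls were lost without the day 3 Cre-negative library, and Stmn1 also without the vehicle Cre-positive one. Near the starts of mitotic genes, 2 short motifs are known to be common: TTTGAA, the core of the cell cycle homology region, and ATTGG, the box bound by the factor NF-Y. Because Cdk1, Ccnb2 and Top2a moved together, the 150 bases before each start are shown 5′ to 3′ from RefSeq on GRCm38.p6, all on the minus strand, with both motifs on either strand in capitals.
Cdk1, chr10:69352913-69353062: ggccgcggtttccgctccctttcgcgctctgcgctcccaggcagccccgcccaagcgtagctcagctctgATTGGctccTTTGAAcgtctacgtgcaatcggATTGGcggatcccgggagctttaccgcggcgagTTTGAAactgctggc
Ccnb2, chr9:70421555-70421704: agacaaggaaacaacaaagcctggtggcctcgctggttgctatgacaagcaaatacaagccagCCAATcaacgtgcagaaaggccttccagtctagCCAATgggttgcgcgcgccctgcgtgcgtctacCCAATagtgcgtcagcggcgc
Top2a, chr11:99024190-99024339: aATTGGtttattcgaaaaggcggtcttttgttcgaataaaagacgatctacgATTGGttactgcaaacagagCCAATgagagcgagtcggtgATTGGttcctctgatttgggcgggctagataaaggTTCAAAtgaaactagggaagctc
These stretches hold 2, 0 and 1 copies of TTTGAA and 2, 3 and 4 of ATTGG. In the longer window from 250 bases before to 50 after a start, TTTGAA was in 8 of 23 cell cycle genes with a RefSeq promoter (34.8%) and in 20.2% of 27025 genes. Ccnb2 was among these 8, with no copy inside the 150 bases shown. ATTGG was in 17 of 23 (73.9%) against 41.1%. A match is only a description of the window.

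Granzyme B showed the sharpest day 3 peak of the effector genes. Gzmb, a protease of killer granules (chr14:56258838-56262260, GRCm38), was counted with 89 and 42 UMIs after vehicle, 1400 and 602 at day 3, and 22 and 25 at day 7, or 12.14 and 5.318, 145.5 and 77.11, and 2.889 and 3.216 CPM. Both day 3 libraries were far above all others. The log2 change was 3.63 (SE 0.21, adjusted p = 0.000548), and it was called in 17 of the 18 alternatives that could test it, the exception being the cells outside the cycling gate described below. RNA free in the suspension held 3.51 to 28.38 CPM of Gzmb, below both day 3 values in the cells.

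Of 22 effector genes tested, 4 were called higher at day 3, where 6.67% of all genes were, none lower, with a median log2 change of 0.34. The other 3 were Lgals1 and Lgals3, which encode galectins, and Anxa2, an annexin of the inner membrane. Lgals1 was at 225.9 and 181.6 CPM, 931.4 and 769.1, and 145.5 and 258.5 (log2 change 2.0, SE 0.24, adjusted p = 0.00533). Lgals3 was at 9.822 and 7.471, 83.27 and 77.11, and 5.778 and 18.01 CPM (3.16, SE 0.36, adjusted p = 0.00501). For both, day 3 stood above every other library. Free RNA held 388.2 to 470.1 CPM of Lgals1 outside day 3 and 1155.6 and 1087.2 at day 3. With free RNA subtracted, the changes were 2.04 for Lgals1 (adjusted p = 0.0162) and 3.42 for Lgals3 (adjusted p = 0.0157).

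Classical killer genes other than Gzmb did not all follow. Gzma, a second granule protease, was at 22.24 and 87.62 CPM, 148.6 and 113.2, and 8.01 and 3.602, and its day 3 change was not called (1.30, adjusted p = 0.181). The vehicle pair was uneven. Gzma was called without the vehicle Cre-positive library (2.83, adjusted p = 0.000773), without cells carrying other lineages' UMIs (4.14, adjusted p = 0.000603), without either day 7 library, with no filter on low counts (1.29, adjusted p = 0.00515) and in the CD31 libraries (1.59, adjusted p = 0.0436). The change was 0.18 without the vehicle Cre-negative library (adjusted p = 0.757) and 0.69 without the day 3 Cre-negative one (adjusted p = 0.662). Prf1, the pore protein perforin, was at 40.79 and 41.03 CPM, 31.71 and 40.86, and 45.96 and 47.73 (-0.24, adjusted p = 0.328). Ifng was at 17.73 and 20.01 CPM, 22.35 and 36.76, and 8.798 and 14.54 (0.55, adjusted p = 0.0884). Tbx21, the transcription factor T-bet, changed by 0.30 (adjusted p = 0.264). Klrg1, a receptor of short-lived effectors, stayed at or below 1.266 CPM in every library and was too low to test.

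Receptors and factors of antigen activation were split. Of 19 tested, 4 were called higher and 1 lower, where 6.67% and 1.35% of all genes were, and the median log2 change was 0.05. Il2ra, the alpha chain of the high-affinity IL-2 receptor (chr2:11642807-11693193), was at 2.865 and 6.458 CPM, 36.28 and 52.9, and 2.889 and 6.947. It rose by 3.24 on the log2 scale (SE 0.21, adjusted p = 0.000931), with day 3 above all else. Batf, a transcription factor of activated T cells, was at 39.56 and 40.52, 73.4 and 88.89, and 36.11 and 46.57 CPM (0.95, SE 0.12, adjusted p = 0.00538). Tnfrsf9, the co-stimulatory receptor 4-1BB, and Irf4, a factor induced by antigen receptor signals, rose by 1.21 (adjusted p = 0.0149) and 1.20 (adjusted p = 0.036). Each of these last 2 calls was lost without the vehicle Cre-positive or the day 3 Cre-negative library, and that of Irf4 also without the day 3 Cre-positive one. In cells without the genes of the gates the sign of Tnfrsf9 turned (-0.67, adjusted p = 0.93).

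Cd69 and Egr1 did not follow these genes. Cd69, which holds recently activated cells in the node, was at 196.6 and 178.7 CPM, 149.9 and 234.1, and 185 and 183.5, so the day 3 pair spanned the range of all others. Egr1, an immediate early factor, fell from 54.02 and 78.13 to 39.19 and 47.01 CPM (log2 change -0.65, adjusted p = 0.0278), a call lost without either vehicle library or the day 3 Cre-positive one. Without cells carrying other lineages' UMIs its sign turned (0.33, adjusted p = 0.753). Egr1 is the 1 gene of the activation list called lower. On the separate list of 17 immediate early genes, 1 was called lower (Fosb, -0.88) and none higher. Of all genes, 1.35% were called lower and 6.67% higher. The summed level of that list was 3222.6 and 3251.2 CPM after vehicle, 2428.8 and 3719.6 at day 3, and 3490.6 and 3417.6 at day 7, so the day 3 pair held both the lowest and the highest value.

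Inhibitory receptors gave 2 calls of 12 tested, both higher, with a median log2 change of 0.30, where 6.67% of all genes were called higher. Havcr2, the inhibitory receptor TIM-3 (chr11:46454935-46481255), was at 1.637 and 3.166 CPM, 34.52 and 37.53, and 0.131 and 4.245. It rose by 3.92 (SE 0.54, adjusted p = 0.00762), and both day 3 libraries lay well above the others. Ctla4 rose by 0.67 (adjusted p = 0.0379), a call lost without any 1 of the vehicle libraries or the day 3 Cre-negative one. The sign of Ctla4 turned without cycling cells (-0.16), without cells carrying other lineages' UMIs (-0.04) and in cells without the genes of the gates (-0.82). Pdcd1, which encodes PD-1, was at 5.593 and 2.786, 11.44 and 17.42, and 2.101 and 5.789 CPM, and its change (1.68, adjusted p = 0.061) missed the threshold.

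Of 23 genes of selectin ligands and migration, 3 were called higher, where 6.67% of all genes were. Fut7 and Gcnt1 encode enzymes that build the sugar ligands of P- and E-selectin, which let T cells enter inflamed skin. Fut7 was at 1.364 and 0.760 CPM, 11.75 and 8.966, and 1.051 and 2.702, and Gcnt1 at 5.593 and 2.659, 18.4 and 28.31, and 1.707 and 7.076. Both were highest in the 2 day 3 libraries, with log2 changes of 3.22 (adjusted p = 0.0103) and 2.39 (adjusted p = 0.0283). Ccr4, a chemokine receptor of skin-homing T cells, rose by 1.97 (adjusted p = 0.0248) from 1.637 and 1.519 to 5.822 and 7.173 CPM. Fut7 lost its call without the day 3 Cre-negative library, Gcnt1 without it, the day 3 Cre-positive or the vehicle Cre-positive one, and Ccr4 without any 1 of the vehicle or day 3 libraries. Without cycling cells the sign of Gcnt1 turned (-0.28, adjusted p = 0.973). Of 25 cytokine receptor and signalling genes, 2 were called higher, a share near the 6.67% of all genes. They were Il12rb2, a chain of the IL-12 receptor (1.17), and Pim1, a kinase induced by cytokines (0.72). In cells without the genes of the gates Il12rb2 turned to -0.05.

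Lipid synthesis and glycolysis genes rose broadly. Of 20 tested, 14 were called higher, where 6.67% of all genes were, and none lower, with a median log2 change of 0.96. Fdps, an enzyme of the sterol pathway (chr3:89093588-89101959), was at 23.74 and 24.18 CPM, 97.52 and 58.92, and 23.9 and 21.74 (1.61, SE 0.19, adjusted p = 0.00501). Idi1 and Sqle of the same pathway each rose by 1.54. Without the day 3 Cre-negative library neither was called, and Sqle was also lost without either vehicle library. Ldha, which turns pyruvate to lactate, was at 243.9 and 205.1 CPM, 610.3 and 433.4, and 237.2 and 246 (1.15, SE 0.13, adjusted p = 0.00485). Tpi1, another glycolytic enzyme, rose by 1.57, and for each of Fdps, Ldha and Tpi1 the day 3 pair lay above all other libraries. Abca1, a transporter that exports cholesterol, went the other way, at 27.01 and 32.42, 9.461 and 14.47, and 22.72 and 33.71 CPM (-1.39, SE 0.15, adjusted p = 0.00407). Other genes with the largest falls were Zc3h6, a zinc finger protein (-1.18), Izumo4 (-1.11), Fhit (-1.01), Cirbp, a cold-inducible RNA-binding protein (which fell from 101.2 and 67.74 to 44.6 and 41.88 CPM), Slc14a1, a urea transporter (-0.99) and Cdk8 (-0.87). Fhit was at 86.49 and 115.4, 51.77 and 51.87, and 78.26 and 90.7 CPM, so day 3 lay below all other libraries. Izumo4 and Cirbp lost their calls without the day 3 Cre-negative library, and Slc14a1 without the vehicle Cre-positive one.

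Chaperones are often read as a sign of handling, and 4 of 9 on that list were called higher, where 6.67% of all genes were. Hspd1, a mitochondrial chaperonin, was at 209.8 and 221.6, 487.8 and 388.2, and 186.3 and 202.1 CPM (0.96, adjusted p = 0.00697). Hsp90aa1 and Hspa8, 2 cytosolic chaperones, rose by 0.69 and 0.60. The median log2 change of the list was 0.30.

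Some naive and quiescence genes were lower. Of 20 tested, 5 were called lower at day 3, none higher, 15 were not called, and the median log2 change was -0.35, against the 1.35% of all genes that were called lower. Lef1, a transcription factor of naive T cells, was at 631.2 and 853.7, 496.8 and 607.9, and 634.3 and 686.9 CPM (-0.48, adjusted p = 0.0482). Lef1 was lowest in the 2 day 3 libraries, by a margin smaller than the gap between the 2 vehicle libraries. Bach2, which restrains effector programmes, changed by -0.52 (adjusted p = 0.0335), Dapl1 by -0.54 (adjusted p = 0.0478) and Ramp1, a receptor subunit for the neuropeptide CGRP, by -0.92 (adjusted p = 0.0213). All 4 of these calls were lost without the day 3 Cre-negative library and without the vehicle Cre-positive one. Tcf7 (-0.33, adjusted p = 0.093), Il7r (-0.39, adjusted p = 0.081) and Ccr7 (-0.50, adjusted p = 0.12) missed the threshold. Without the cycling cells described below, the summed level of the list was 7385.9 and 8154.9 CPM after vehicle and 7644.7 and 8607.3 at day 3, with overlap.

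Most memory-like genes were not called. Of 22 tested, 2 were called higher, near the 6.67% of all genes, and 2 lower, against 1.35% of all genes, with a median log2 change of 0.01. Ly6c2, a surface protein of memory and interferon-exposed CD8 T cells (chr15:75108158-75111970), was at 575.8 and 567 CPM, 263.9 and 362.6, and 445.9 and 605.2. It fell by 0.95 on the log2 scale (SE 0.13, adjusted p = 0.00676), with day 3 below every other library, a call lost without the day 3 Cre-negative library. After thinning to 1000 UMIs, 29.47% and 28.93% of cells had a Ly6c2 UMI after vehicle, 20.75% and 21.15% at day 3, and 23.18% and 31.49% at day 7, against at most 1.472% of B cells. Ccl5, a chemokine stored by memory CD8 T cells, was at 769.4 and 662.5, 499.5 and 459.4, and 537.5 and 859.4 CPM (-0.64, adjusted p = 0.0742) and was not called.

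Among the other memory-like genes, Klrd1, the CD94 subunit of NKG2 receptors, was called lower (-0.60, adjusted p = 0.0299), and its partner Klrc1 was called higher, at 8.73 and 9.117, 24.43 and 20.88, and 3.808 and 9.005 CPM (1.30, adjusted p = 0.0362). Both calls were lost without the vehicle Cre-positive or the day 3 Cre-negative library, Klrd1 also without the day 3 Cre-positive one and Klrc1 without the vehicle Cre-negative one. With thinned cells the sign of Klrc1 turned (-0.11, adjusted p = 0.993). Cd44, Il2rb, Cxcr3 and Eomes, which mark antigen-experienced cells, changed by -0.09, 0.19, 0.05 and 0.10, and Nkg7 by -0.04, with no call. S100a6, a calcium-binding protein, rose by 1.82 (adjusted p = 0.013), and free RNA held 805.4 to 1569.4 CPM of it. With free RNA subtracted it changed by 1.95 (adjusted p = 0.04), and without the day 3 Cre-negative library it was not called.

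Markers of other cells were read beside these changes. At day 3, 6.67% of all genes were called higher and 1.35% lower. Lyz2 was called higher of 9 myeloid markers and Xbp1 of 5 plasma cell markers, and Ighm was called lower of 8 B cell and Pecam1 of 8 endothelial and stromal markers. Of 6 helper and regulatory T cell markers 3 were called higher, Ctla4, Ikzf2 and Il2ra. Whether other T cells among the members added to these was not tested. Summed levels overlapped between vehicle and day 3 for myeloid markers (314.2 to 321.5 against 250.5 to 323.1 CPM) and for endothelial and stromal markers (578 to 707.3 against 652.7 to 685.8). B cell markers were lower over all members (436.7 to 465.3 against 337.9 to 395.8). Without cycling cells they overlapped, at 477.4 and 359.2 CPM after vehicle and 477 and 394.2 at day 3. The helper and regulatory T cell markers were higher without overlap, at 198.9 and 223.7 CPM after vehicle and 303.5 and 425 at day 3, and at 196.4 and 219.9 against 225 and 284.3 without cycling cells. With free RNA subtracted 650 genes were called at day 3, without the highest doublet scores 1310, and without cells carrying 3 or more UMIs of other lineages' markers 22. That last filter removed 28.08% to 50.83% of the CD8 T cells. It was not scaled for depth. At day 3, cells in the cycling gate described below had a median of 25258 and 31488 UMIs, against 5535 and 8083.5 outside it. How many of the gate's cells the filter removed was not tested.

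Dividing cells were then counted directly. A cell was placed in the cycling gate when it had a UMI of at least 2 of Mki67, Top2a, Birc5, Cdk1, Ccna2 and Rrm2. After thinning each cell to 1000 UMIs, 1.504% and 0.524% of CD8 T cells were in the gate after vehicle, 5.601% (95% Clopper-Pearson interval 4.311% to 7.137%) and 5.286% (3.73% to 7.244%) at day 3, and 0.576% and 0.972% at day 7. Neither day 3 interval reached that of vehicle Cre-negative, the highest of the others (0.879% to 2.398%). With all UMIs the shares were 3.54% and 1.572%, 11.48% and 10.43%, and 1.008% and 3.013%, or 40 and 15, 125 and 71, and 14 and 31 cells. Another 55 to 86 cells per library had a UMI of exactly 1 gate gene, and 1 to 10 had exactly 2. With 2 libraries against 2, an exact permutation test cannot go below p = 0.333, so no test of shares was made, and the intervals cover counting error only.

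**Figure D2:**
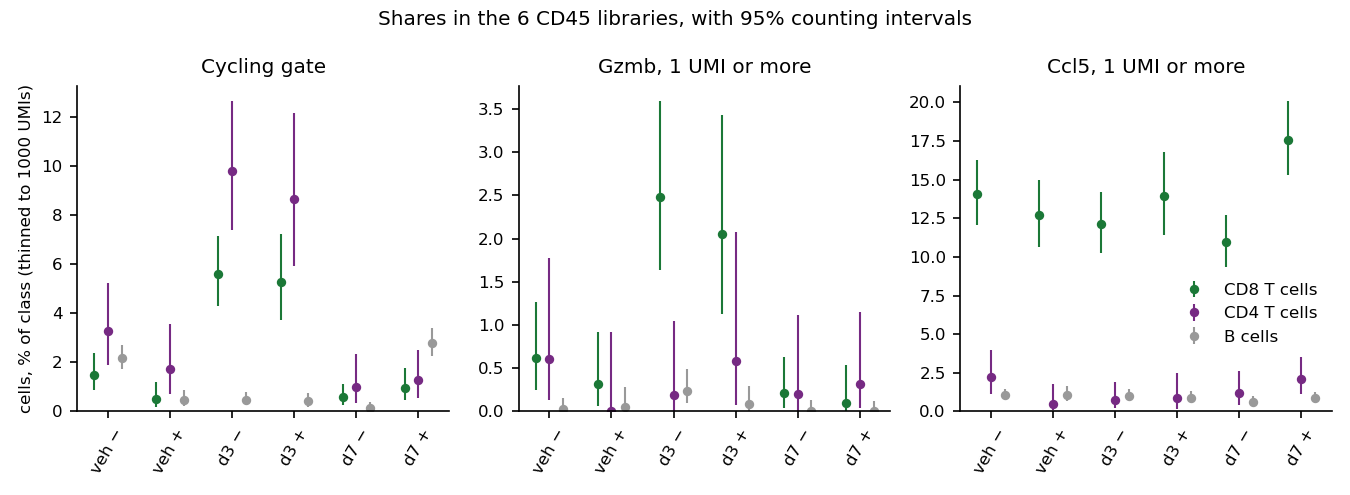
Share of cells in the cycling gate (left), with a Gzmb UMI (middle) and with a Ccl5 UMI (right), in % of CD8 T cells (green), CD4 T cells (purple) and B cells (grey) per CD45 library, each cell thinned to 1000 UMIs; bars are 95% Clopper-Pearson intervals. Green points for the cycling gate and Gzmb are highest at d3, at 5.601% and 5.286% and at 2.479% and 2.056%, while the Ccl5 share shows no such peak.

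A Gzmb UMI was found in 15 and 10 cells after vehicle, 62 and 34 at day 3, and 8 and 11 at day 7. After thinning, the shares were 0.62% and 0.315%, 2.479% and 2.056%, and 0.216% and 0.0972%, and in B cells at most 0.239%, reached at day 3 Cre-negative. At day 7 the thinned share was 0% in the B cells of both libraries (upper 95% Clopper-Pearson bounds 0.131% and 0.115%). With all UMIs it was 0.576% and 1.069% of CD8 T cells at day 7, whose median depth was 5059 and 6654 UMIs, against 0.0355% and 0.125% of B cells, at 2554 and 3726 UMIs. At day 3, 54 of the 62 Gzmb cells and 26 of the 34 were in the cycling gate, and they made up 43.2% and 36.62% of the gate. After vehicle it was 4 of 15 and 5 of 10, and at day 7 0 of 8 and 3 of 11. Of the day 3 Gzmb cells, 13 of 62 (20.97%) and 18 of 34 (52.94%) had a Ccl5 UMI, against 20.75% and 24.38% of all CD8 T cells. These shares used all UMIs and were not matched for depth. The Gzmb cells held a median of 28496 and 31881 UMIs, against 5716 and 8262 in cells without Gzmb. Cells with a Ccl5 UMI made up 14.07% and 12.68%, 12.12% and 13.95%, and 10.94% and 17.59% of thinned CD8 T cells, with overlap between all treatments, against 0.639% to 1.069% of B cells.

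Cells in the cycling gate held 39.5% and 31.6% of the UMIs of all genes in the day 3 CD8 T cells, since their median depth was 25258 and 31488 UMIs against 5535 and 8083.5 outside it. They held 99.4% and 96.5% of the Gzmb UMIs, 95.7% and 92.7% of those of Il2ra and 97.6% and 98% of those of Havcr2. For Lgals1 the shares were 87.7% and 84.6%, for Fdps 81% and 67%, and for Ldha 74.7% and 63.4%. The 20 naive genes together had 16.4% and 14.2% of their UMIs in the gate, Lef1 among them 11.8% and 10.5%. The 22 memory-like genes together had 36.7% and 36.9% there, near the share of all genes, although Ccl5 had 5.64% and 14.8%. Batf, with 53.4% and 45.1%, and Irf4, with 64.3% and 54.1%, lay between.

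Levels per gate differed in the same way in both day 3 libraries. Gzmb was at 366.2 and 235.7 CPM in cycling cells, 1.3 and 7.3 in other cells with a Ccl5 UMI, and 1.4 and 2.4 in the rest. Il2ra was at 87.9 and 155.4 CPM in cycling cells and at most 7.9 elsewhere. Ly6c2 was highest in the non-cycling Ccl5 cells, at 738.4 and 874.1 CPM, against 141 and 186.2 in cycling cells. Il7r, the IL-7 receptor of resting cells, was at 776.9 and 731.3 CPM in the Ccl5 cells, 450.2 and 441.3 in the rest and 58.1 and 97.8 in cycling cells. Lef1 ran from 148.4 and 202 CPM in cycling cells to 817.1 and 920 in cells with neither mark. The split used the gate genes and Ccl5 and the cells of 1 library are not replicates, so these levels carry no test.

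**Figure D3:**
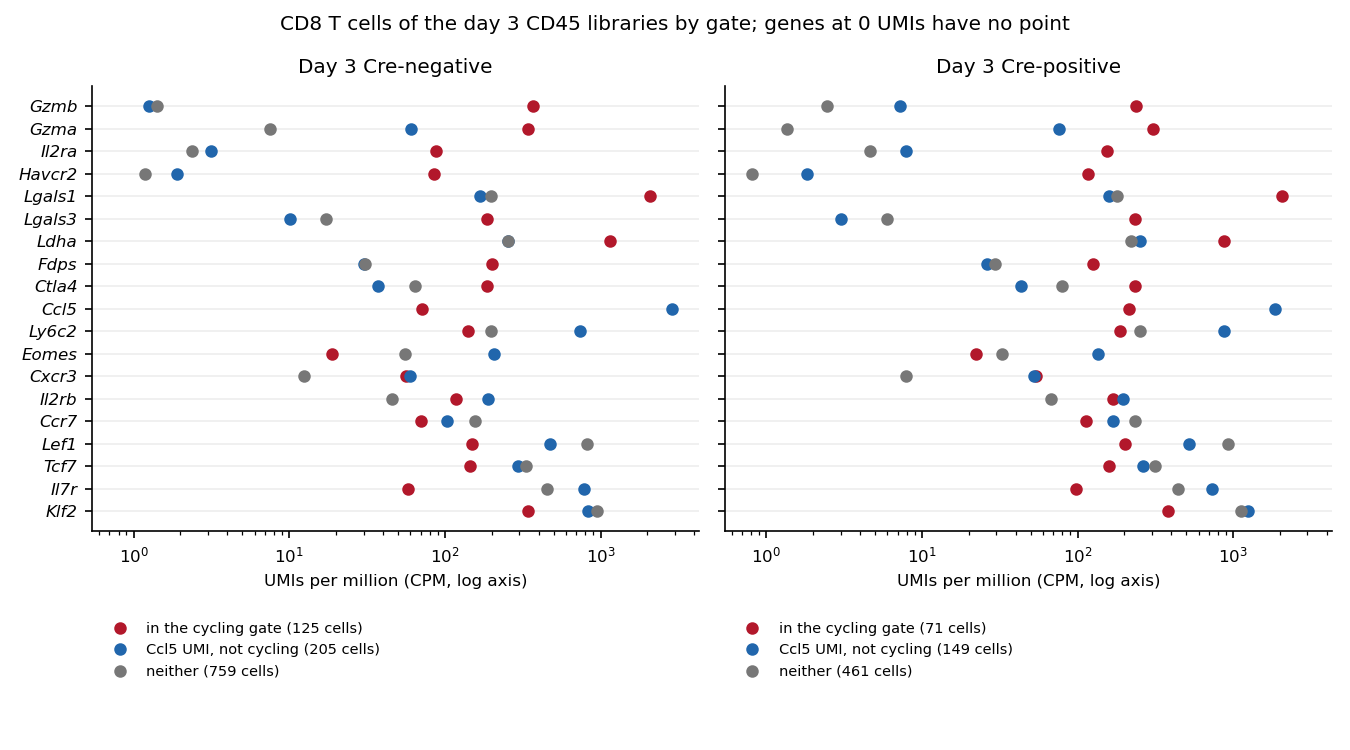
Levels of 19 genes (CPM, log axis) in the 2 day 3 CD45 libraries, for CD8 T cells in the cycling gate (red), with a Ccl5 UMI and not cycling (blue) and with neither (grey). In both panels the red point of Gzmb (366.2 and 235.7 CPM) stands far right of the others, and those of Lef1, Tcf7 and Il7r stand left.

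Without the cycling cells, 4 of 12365 genes (0.0323%) were called higher at day 3 and none lower. They were Saa3, Lyz2, Il1b and Clu, transcripts of myeloid or stromal cells. Saa3, an acute phase protein, was at 0.298 and 0.133, 44.18 and 21.9, and 1.351 and 0.42 CPM in the non-cycling cells and at 4.56 and 2.34, 119.8 and 236.3, and 2.897 and 7.094 CPM in free RNA. Lyz2, lysozyme of myeloid cells, was at 53.63 and 29.2 CPM in non-cycling day 3 cells, at 159.9 and 111.6 in day 3 B cells and at 733.5 and 536.3 in day 3 free RNA. At day 3, free RNA held Saa3 and Lyz2 at a higher level than the non-cycling CD8 T cells did. The part of free RNA in the 4 calls was not tested. In the CD31 libraries, day 3 CD8 T cells held 1.056 and 1.111 CPM of Saa3, and Lyz2 changed by -1.07 (adjusted p = 0.448).

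Of 337 genes on the fixed lists, 1 was called without cycling cells, the myeloid marker Lyz2. An unadjusted edgeR p under 0.05 was found for 57 of these 337, and for 781 of all 12365 genes. The medians went from 1.93 to 0.07 for cell cycle genes, which the gate itself uses in part, from 0.96 to 0.20 for lipid and glycolysis genes, from 0.34 to 0.20 for effector genes and from -0.35 to -0.02 for naive genes. Gzmb changed by 0.09 (adjusted p = 0.993), Il2ra by 0.15 (adjusted p = 0.967) and Lgals1 by 0.20 (adjusted p = 0.94). Ly6c2 changed by -0.62 (adjusted p = 0.336). At day 7 against day 3, 2 genes (0.0162%) were called lower without cycling cells, Saa3 and Lyz2.

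**Figure D4:**
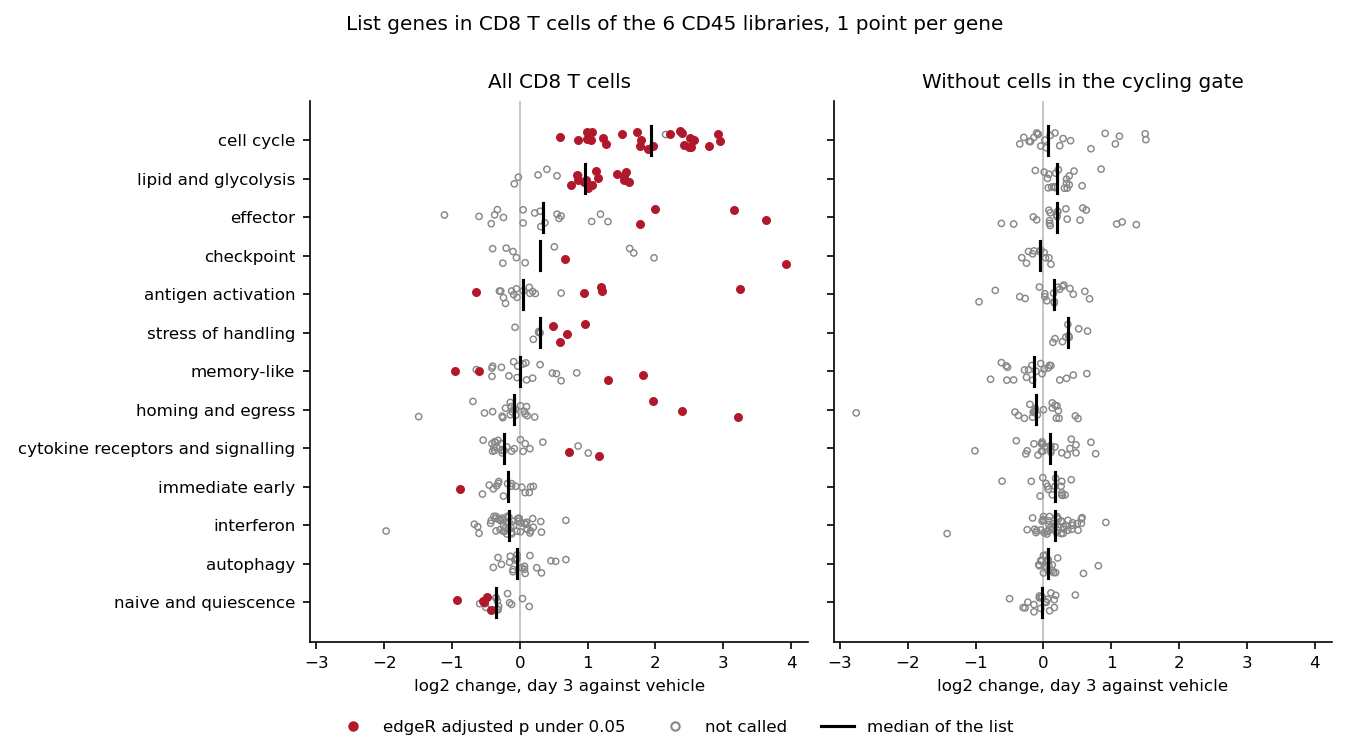
Log2 change at day 3 against vehicle for each gene (point) of 13 fixed lists in CD8 T cells of the CD45 libraries, all cells at left and without cells in the cycling gate at right. Filled red points have an edgeR adjusted p under 0.05, open points do not, and black bars are list medians; the cell cycle median is 1.93 at left and 0.07 at right, where no point is red.

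No gene of the interferon list was called at day 3, and cells rich in interferon transcripts were most frequent there before thinning. Of 49 tested, 0 passed in edgeR, where 8.03% of all genes did, and 0 in DESeq2. An unadjusted edgeR p under 0.05 was found for 12 of them, and for 3121 of all 12707 genes. The median log2 change of the list was -0.16. Isg15, a ubiquitin-like interferon product, was at 55.38 and 38.62, 81.82 and 74.93, and 36.77 and 64.2 CPM, and Ifit3 at 25.78 and 19.75, 20.06 and 22.16, and 21.93 and 24.7. Ifit3 overlapped between all treatments, whereas Isg15 was highest in the 2 day 3 libraries (0.68, adjusted p = 0.133) and was called without either day 7 library (0.70 and 0.69, adjusted p = 0.00218 and 0.00573) and with no filter on low counts (0.67, adjusted p = 0.0119). The Isg15 change was 0.35 without the vehicle Cre-positive library (adjusted p = 0.614) and 1.1 without the Cre-negative one (adjusted p = 0.0555). Without cycling cells 781 of all 12365 genes had an unadjusted edgeR p under 0.05. The median of the list was then 0.17, with 0 called by edgeR and 10 at an unadjusted p under 0.05. Its summed level was then 4222.2 and 3909.7 CPM after vehicle, 4931.8 and 4450.2 at day 3, and 3632.1 and 4331.4 at day 7, highest in the 2 day 3 libraries, and Isg15 changed by 0.92 (adjusted p = 0.692). A thinned Isg15 UMI was found in 4.867% and 3.878%, 8.815% and 6.461%, and 3.456% and 5.831% of CD8 T cells. Cells with 3 or more UMIs over Ifit1, Ifit3, Isg15, Usp18, Rsad2 and Irf7 made up 10.44% and 11.11%, 16.07% and 23.2%, and 5.544% and 14.58% with all UMIs, highest at day 3. After thinning they made up 1.062% and 0.943%, 1.561% and 1.175%, and 0.72% and 1.458%, with overlap between day 3 and day 7. The promoters of these genes are known to carry the interferon-stimulated response element. Its core, searched as a pair of GAAA blocks 2 bases apart, was in the window from 250 bases before to 50 after the start in 24 of 40 list genes with a RefSeq promoter and in 3.99% of 27025 genes, on either strand. Of 21 autophagy genes, 0 were called at day 3 by edgeR, where 8.03% of all genes were, and 0 by DESeq2. An unadjusted edgeR p under 0.05 was found for 4 of the 21. Atg12, whose product is joined to Atg5 as an autophagosome forms, was at 43.93 and 50.78, 40.96 and 48.8, and 45.44 and 45.16 CPM, and its difference by Cre label was 0.05 (adjusted p = 0.861).

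At day 7, Gzmb, Gzma, Il2ra, Havcr2 and most cell cycle genes were lower than at day 3. Of 12707 genes, 914 (7.19%) were called, 731 (5.75%) lower and 183 (1.44%) higher. This comparison and the one before share the day 3 libraries, so they are not independent. Gzmb fell by 5.06 on the log2 scale (adjusted p = 0.000198), Gzma by 4.43 (adjusted p = 0.00837), Il2ra by 3.16 (adjusted p = 0.000834) and Havcr2 by 4.10 (adjusted p = 0.00641). Ifng, not called at day 3, fell by 1.26 (adjusted p = 0.00693). Of 26 cell cycle genes 25 fell, and of 20 lipid and glycolysis genes 15. The largest falls also held Cdca3, Tpx2 and Ube2c, which act in mitosis, and the histone Hist1h2ae, by 3.23, 3.17, 3.13 and 3.18. Of 20 naive genes 3 rose, and Ly6c2 rose by 0.82 (adjusted p = 0.0101). The total was 308 without the day 3 Cre-negative library.

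Against vehicle, no gene was called at day 7 by edgeR, where 623 had an unadjusted p under 0.05 and DESeq2 called 16. Gzmb was at 2.889 and 3.216 CPM against 12.14 and 5.318 after vehicle, a log2 change of -1.43 (adjusted p = 0.504), and was 1 of the genes DESeq2 called. A p above the threshold does not show that the groups were alike. Without the day 7 Cre-negative library 336 genes were called, and without any 1 of the others 7 to 20.

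Of the 10 genes with the largest rise from day 3 to day 7, Abca1 and Zc3h6 rose by 1.31 and 1.19, and the other 8 are known chiefly from stromal cells and macrophages. Dcn, a matrix proteoglycan of fibroblasts, was at 215.3 and 173.3, 170.6 and 165.1, and 306.5 and 655.7 CPM (log2 change 1.54, adjusted p = 0.0165). Apoe, made by macrophages and stroma, was at 208.6 and 224, 229 and 253.9, and 467.1 and 830.3 CPM (1.46, adjusted p = 0.00357). Gsn, Igfbp5, Clec3b, C3, Slit3 and Aebp1 rose by 1.8, 1.5, 1.42, 1.31, 1.23 and 1.2. The highest value of Dcn and Apoe was in the day 7 Cre-positive library, whose summed endothelial and stromal markers were 1910.1 CPM against 578 to 792.5 in the other 5. Free RNA held 977.2 to 3108.3 CPM of Dcn and 3193.5 to 8940.3 of Apoe, each highest at day 7 Cre-positive. In the CD31 libraries, CD8 T cells held at most 8.516 CPM of Dcn, and day 7 against day 3 had the opposite sign there for Dcn (-2.43), Slit3 (-0.83) and C3 (-1.62, adjusted p = 0.0394). With free RNA subtracted, C3 alone of these 8 was called (adjusted p = 0.0394), and Apoe was not (adjusted p = 0.214). That subtraction was scaled on Igkc, Ighm and Hbb-bs, and how much stromal transcript it left was not tested. The Dcn, Clec3b and Aebp1 calls were lost without the day 3 Cre-positive library, and that of Slit3 also without the day 7 Cre-positive one. Cxcl13, a chemokine of follicular stroma, was at 13.91 and 3.166, 131.9 and 94.65, and 161 and 32.55 CPM, highest at day 7 Cre-negative. It was called higher at day 3 against vehicle (3.96, adjusted p = 0.00501), with 352.4 and 325.8, 1115.1 and 1264.6, and 323 and 697.8 CPM of it in the free RNA. It was at 0 in 4 of the CD31 libraries. Ifitm1, an interferon-inducible membrane protein outside the interferon list, rose by 2.72 at day 3 (adjusted p = 0.0056), and by 3.15 with free RNA subtracted, without a call (adjusted p = 0.0884).

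The Cre label gave few differences. Over the 3 treatments, 4 of 12707 genes (0.0315%) were called, all higher with the Cre-positive label: Cdk8, Cmss1, Lars2 and Tnfaip6. Cdk8, a kinase of the Mediator complex (chr5:146231230-146302874), was at 146.5 and 492.6, 84.73 and 278.3, and 125.1 and 414 CPM (log2 difference 1.63, SE 0.08, adjusted p = 0.000727). Each Cre-positive library lay above its pair and above all Cre-negative ones. B cells showed the same order, with 142.7 and 480.2, 117.6 and 351.5, and 138.4 and 382.8 CPM, and so did free RNA, with 381 and 1046.8, 228.1 and 804.9, and 299.3 and 663.1. Cmss1 and Lars2 differed by 1.38 (adjusted p = 0.0381) and 0.90 (adjusted p = 0.0311). In CD8 T cells of the CD31 libraries, Cdk8 differed by 0.33, Cmss1 by 0.18 and Lars2 by 0.06, with no call. Tnfaip6, under the level set for naming (20 CPM) and named since it completes the count, differed by 1.95 and was at most 0.37 CPM in the CD31 libraries.

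The median mitochondrial share and depth were also higher with the Cre-positive label in the CD45 libraries, and their part in these differences was not tested. Of 345 genes on the fixed lists, 0 were called by Cre label in edgeR, 69 had an unadjusted p under 0.05, and DESeq2 called 10 of the 100 to which it gave an adjusted p. Gzmb was lower in the Cre-positive library at vehicle and day 3 (5.318 against 12.14 and 77.11 against 145.5 CPM) and higher at day 7, a mean difference of -0.93 (adjusted p = 0.206). In the CD31 libraries the day 3 order was reversed, with 131 CPM in the Cre-negative and 194.4 in the Cre-positive library. In all, 2009 genes had an unadjusted p under 0.05, DESeq2 called 201 of the 1079 to which it gave an adjusted p, 148 lower and 53 higher with the Cre-positive label, and leaving out a library gave 9 to 205.

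The CD8 T cells of the CD31 fraction, which the rule did not use for the values above, showed similar day 3 changes. The protocol splits 1 cell suspension into both fractions, so these need not be other animals. A Y-linked UMI was found in 49.02% and 76.72%, 19.53% and 37.45%, and 36.3% and 18.93% of them, near the shares in the matching CD45 libraries. The 2 fractions are therefore not read as independent. Of 11523 genes, 332 (2.88%) were called higher at day 3 and 19 (0.165%) lower. Gzmb was at 7.034 and 3.937, 131 and 194.4, and 2.253 and 1.101 CPM (log2 change 4.87, adjusted p = 0.0013), with day 3 above all else. Il2ra rose by 3.01, Havcr2 by 4.71, Hmgb2 by 2.20 and Mki67 by 2.28. Of 26 cell cycle genes 21 rose, and of 20 lipid and glycolysis genes 10. Ly6c2 fell by 0.83 (adjusted p = 0.046), and of the naive genes 2 were called lower. Of the 1020 genes called in the CD45 libraries, 306 were also called here, which is 87.2% of the 351 called here, and 973 of the 989 that could be tested had the same sign. At day 7 against day 3, 329 genes (2.86%) were called lower and 54 (0.469%) higher.

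CD4 T cells of the same libraries (2894 cells, Cd4 in place of Cd8 in the rule) were also in the cycling gate most often at day 3, and their summed Gzmb level was not highest there. In the cycling gate, after thinning, were 3.259% and 1.741%, 9.793% and 8.671%, and 1.006% and 1.276% of them. Of 26 cell cycle genes 12 were called higher in CD4 T cells at day 3, against 1.57% of 11565 genes (0.225% were called lower), and of 20 lipid and glycolysis genes 5. At day 7 against day 3, 1.79% of genes were called lower in CD4 T cells and 0.208% higher. Mki67 was at 93.67 and 37.53, 192.5 and 249.7, and 35.61 and 29.68 CPM in CD4 T cells, and its day 3 change did not differ between the classes by the test (difference 0.52, adjusted p = 0.675). Gzmb in CD4 T cells was at 10.37 and 1.955, 5.567 and 5.336, and 6.865 and 9.646 CPM. With all UMIs, a Gzmb UMI was found in 1.222% and 0.746%, 1.883% and 1.734%, and 0.402% and 0.638% of CD4 T cells, highest at day 3, and after thinning in 0.611% and 0% (upper bound 0.913%), 0.188% and 0.578%, and 0.201% and 0.319%, with overlap. In the CD31 libraries 2.564% and 5.837% of CD4 T cells had one at day 3 with all UMIs, and 1.026% and 2.335% after thinning. The difference between the day 3 effects was tested in 1 model over both classes with the library as a block.

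By that test, 9 of 13311 genes outside the member rule (0.0676%) had a higher day 3 effect in CD8 T cells and none a lower one. That direction was not stable, since without the vehicle Cre-negative library more genes were called lower than higher. Gzmb differed by 3.70 on the log2 scale (SE 0.46, adjusted p = 0.0461) and Il2ra by 2.56 (SE 0.32, adjusted p = 0.047). Il2ra in CD4 T cells was at 25.43 and 26.19, 35.02 and 43.76, and 29.6 and 23.99 CPM, above the vehicle and day 7 levels of CD8 T cells in every library. Ikzf2, the factor Helios (chr1:69531214-69687245), rose in CD8 T cells from 55.79 and 80.03 to 87.85 and 180.2 CPM (0.86, adjusted p = 0.0143), and turned to -0.10 in cells without the genes of the gates. In CD4 T cells it went from 293.4 and 227.9 to 188.2 and 172 CPM, and the effects differed by 1.29 (SE 0.14, adjusted p = 0.0336). The other 6 were Fstl1, Ebf1, Plpp3, Gfpt2, Anxa1 and Cxcl2, and for Fstl1, Ebf1, Plpp3 and Gfpt2 the difference lay in higher vehicle levels in CD4 T cells, such as 52.52 and 52.77 CPM for Fstl1 against 16.1 and 15.57 in CD8 T cells. Free RNA held 136.4 and 142.4 CPM of Fstl1 and 705.2 and 667.8 of Ebf1 after vehicle. Without the day 7 Cre-positive library 6 genes were called, with Gzmb, Ebf1 and Ikzf2 no longer among them, and Gzmb was also lost without the vehicle Cre-negative library (2.35). At 5% mitochondrial UMIs 3 genes were called and with thinned cells 2, Gzmb in neither (3.78, adjusted p = 0.05, and 2.04, adjusted p = 0.956). Leaving out any 1 of the others gave 48 to 848. For the day 7 effect, 1 gene (0.00751%) was called, the chemokine Ccl1.

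**Figure D5:**
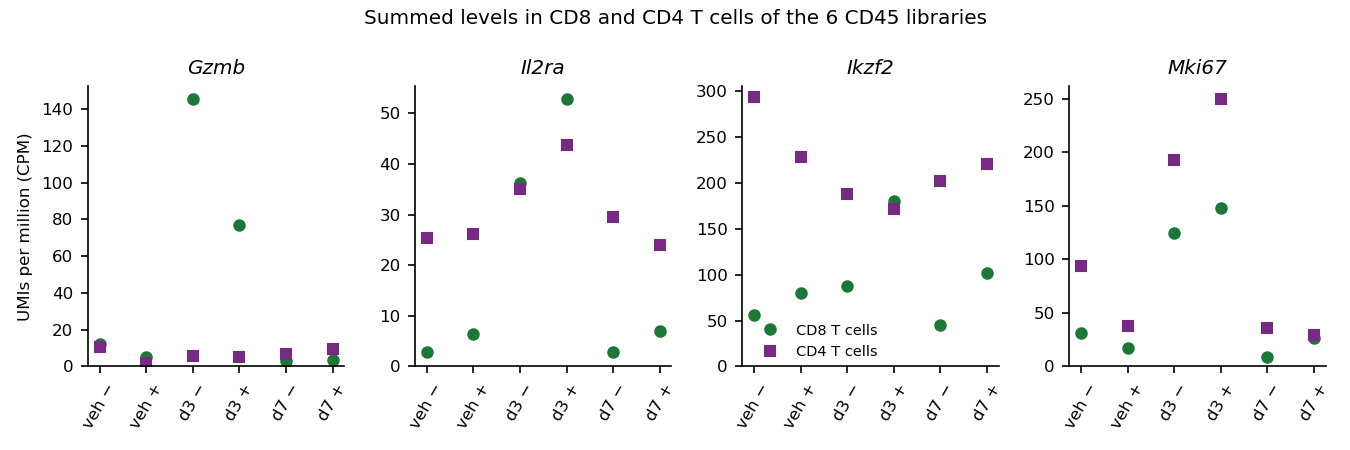
Summed levels (CPM) of Gzmb, Il2ra, Ikzf2 and Mki67 in CD8 T cells (green circles) and CD4 T cells (purple squares), 1 point per CD45 library. Gzmb peaks at d3 in CD8 T cells (145.5 and 77.11 CPM) and not in CD4 T cells (5.567 and 5.336), while Mki67 is highest at d3 in both.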

How the data were processed

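The deposited files hold UMI counts per gene and barcode from Cell Ranger, per the file headers, which name a version other than the one in the submitters' processing notes (7.0.1, genome mm10); the authors list every barcode, so no cell calling is recorded in them. How strand was handled is not given in the sources used here. Of 32285 deposited gene identifiers, 32158 (99.6%) are in GENCODE M21, which gave coordinates on GRCm38. Members, lists and motifs were chosen with earlier results of these data known.

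Cells and members followed the rule in the text. UMIs were summed per library and fitted with edgeR 4.0.16 (R 4.3.3, limma 3.58.1): TMM scaling, expression filter by treatment, quasi-likelihood F test, additive Cre label and treatment with 2 residual degrees of freedom, Benjamini-Hochberg at 0.05. An SE was taken from each F as |log2 change| / sqrt(F). CD8 and CD4 T cells were fitted together with the library as a block. On simulated counts of the day 3 comparison (12462 genes, 100 changed at each fold), 94% of 2-fold and 100% of 4-fold changes were recovered. In these simulated counts 4.9% of calls were false. Changes were planted only in genes with a mean above 20 CPM, and all genes were given the same common dispersion. The rates describe the simulated counts only, and recovery was not split by gene level above that mean. Whether they hold for the real spread between libraries, or for genes at low levels, was not tested.

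Named genes were up to 10 called genes each way with the largest log2 change, a mean of at least 20 CPM and the same direction in every pair, leaving out member rule, receptor, sex-linked, mitochondrial and ribosomal genes, plus any gene of 22 fixed lists. Saa3, Il1b, Clu, Tnfaip6 and the further genes of the CD8 and CD4 comparison were named after their values were seen, to complete counts. Free RNA is the sum of barcodes under 100 UMIs, and its subtraction was scaled by the members' UMIs of Igkc, Ighm and Hbb-bs. Shares have 95% Clopper-Pearson intervals. Doublets were scored with Scrublet (scanpy 1.11.5, expected rate 6%); its own threshold marked 3 barcodes in the day 3 Cre-negative library and had not worked there, so members were left in and an alternative removed the highest scores, at 0.8% per 1000 cells. Other alternatives were DESeq2 1.42.0, RLE scaling, no filter, 5% mitochondrial UMIs, thinning to 1000 UMIs, both Cd8 genes, cells without other lineages' UMIs (under 3) or without the genes of the gates, free RNA subtracted, treatment alone and each library left out. Those without cycling cells or in the CD31 libraries were chosen after seeing the data. Some results of the lists are not reported here.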

Additional observations from a re-analysis of the deposited data

Results flagged for a closer look

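In 4 genes named by the rule, the day 3 effect differed between CD8 and CD4 T cells of the same libraries by the test of the difference itself. The log2 difference was 3.70 for Gzmb (adjusted p = 0.0461), 2.14 for Fstl1 (SE 0.26, adjusted p = 0.0405), 1.46 for Ebf1 (SE 0.17, adjusted p = 0.0405) and 1.29 for Ikzf2 (adjusted p = 0.0336). For Gzmb the day 3 CD8 T cells moved, and for Fstl1 and Ebf1 the CD4 T cells, which held 123.8 and 117.7 CPM of Ebf1 after vehicle and 49.56 and 42.69 at day 3. Ikzf2 rose in CD8 T cells and was lower at day 3 in both CD4 libraries. Of 11 alternatives that could test them, the call held in 7 for Gzmb, 8 for Ebf1 and 9 each for Fstl1 and Ikzf2. All 4 were lost at 5% mitochondrial UMIs, and Gzmb, Fstl1 and Ebf1 with thinned cells (adjusted p = 0.956, 0.845 and 0.652).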

How the results depend on the processing

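Day 3 against vehicle gave 1020 calls, and 651 with DESeq2, 1657 with no filter, 25 with thinned cells, 22 without cells with other lineages' UMIs, 650 with free RNA subtracted, 0 in cells without gate genes (509 at an unadjusted p under 0.05), 4 without cycling cells, 534 by treatment alone and 351 in the CD31 libraries. Leaving out a library gave 178 to 2019. Day 7 against day 3 gave 914, and in the same order 650, 1519, 34, 12, 641, 0 (440 unadjusted), 2, 510 and 383, with 308 to 1187. Day 7 against vehicle gave 0, and 16 with DESeq2, 118 with no filter, 3 thinned and 4 without the highest Scrublet scores, with 7 to 336. The Cre label gave 4, and 201, 247 and 23 for DESeq2, no filter and thinned cells, 2 at 5% mitochondrial, 2 with both Cd8 genes, 35 without other lineages' UMIs, 1 with free RNA subtracted, 0 in cells without gate genes, 2 without cycling cells and 0 in the CD31 libraries (243 unadjusted), with 9 to 205. The day 3 effect in CD8 against CD4 T cells gave 9, and 19 with DESeq2, 17 with RLE, 148 with no filter, 3 at 5% mitochondrial and 2 thinned, with 6 to 848; the day 7 effect gave 1 (Ccl1, at 28.17 CPM in the day 7 Cre-positive library and at most 0.384 elsewhere), and 2, 3 and 46 for DESeq2, RLE and no filter, with 0 to 182.

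With Cd8a and Cd8b1 both required, CD8 T cells were 10.34% and 12.86%, 10.02% and 9.525%, and 13.16% and 9.233% of kept cells and 34.89% and 39.59%, 30.46% and 35.71%, and 33.75% and 31.52% of T cells. Cycling shares on all UMIs, 3.54% and 1.572%, 11.48% and 10.43%, and 3.013% at day 7 Cre-positive, lay above the thinned intervals.

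Of 94 tests of named genes, RLE and no filter kept all 94 calls, DESeq2 86 of 93, and free RNA subtraction 65 of 90. Fewer were kept in the CD31 libraries (47 of 87), with thinned cells (26 of 88), without other lineages' UMIs (15 of 82), without cycling cells (3 of 81) and in cells without gate genes (0 of 60), and 33 were lost without the day 3 Cre-negative library. Signs turned in few: in the CD31 libraries Dcn -2.43, C3 -1.62 and Slit3 -0.83 (day 7 against day 3) and Lyz2 -1.07; in cells without gate genes Hmgb2 -0.10, Pcna -0.23, Tnfrsf9 -0.67, Ctla4 -0.82, Ikzf2 -0.10 and Il12rb2 -0.05; without cycling cells Mcm5 -0.21, Ctla4 -0.16 and Gcnt1 -0.28; without other lineages' UMIs Ctla4 -0.04 and Egr1 0.33; thinned, Klrc1 -0.11. The cause was not tested. Gzma by Cre label was not called (0.28, adjusted p = 0.833) but was without other lineages' UMIs (-1.98, adjusted p = 0.0374). By replicate number, no paired analysis was possible because each group holds 1 library and all carry the same number. Pairing by design was used instead: treatments were compared within Cre label (without that term, 534 genes were called at day 3), and CD8 and CD4 T cells within library. The filter on other lineages' UMIs removed 28.08% to 50.83% of members. Cells without the genes of the gates were 11.01% to 21.31% of members, so both tests rest on fewer cells. The filter was not scaled for depth, and the second choice used Mki67 and Top2a, so neither is independent of the cycling gate. Median depth per library was 5059 to 8454 UMIs a cell, and the intervals of shares cover counting error only.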
